A study of Mus musculus with 2 samples.

Results

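Imprinted genes are genes of which only the copy inherited from one parent is active in most tissues. Here 36 of them, named from textbook knowledge of mouse imprinting, were followed among the 32285 genes counted in cultured spermatogonia. All 36 names were found in both libraries. By the parental copy that is known to be active, 20 are paternally expressed, 15 are maternally expressed, and 1, Gnas, is mixed because its transcripts differ in the copy they use. The cultures, rich in spermatogonial stem cells, were established from THY-1+ cells that were sorted from testes of male C57 LacZ pups, and they were kept on a layer of STO cells, a fibroblast line of the mouse. Growth medium held GDNF at 20 ng/ml, its soluble receptor GFRA1 at 150 ng/ml and FGF2 at 1 ng/ml. For 48 h the cells then received 0 ng/ml FGF (control) or 20 ng/ml FGF9 (FGF9-treated) and were profiled by droplet single-cell RNA-seq, with 1 library per treatment made from cells of several mice together. The labels give passages 9 to 12 for both libraries, but the source name of the FGF9-treated library ends at 13. The study describes a switch at the start of treatment to medium with FGF9 or albumin. Its figure legend gives control cells as cultured with no growth factors for that time, so the ratios would compare FGF9 with growth factor withdrawal. The labels name GDNF, GFRA1 and FGF2 for both libraries and do not state what was present during these 48 h.

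Imprinting rests on DNA methylation set in the germ line. In the male germ line the marks inherited from both parents are erased before birth, and a paternal pattern is then laid down on both chromosomes, so that the control region between H19 and Igf2 and that of the Dlk1-Meg3 cluster take on methylation while regions marked in oocytes stay free of it. Many imprinted genes act on growth, through the growth factor Igf2, its clearing receptor Igf2r and the adaptor Grb10. UMIs, the counts of single mRNA molecules tagged near the 3′ end, carry no information here on the parental copy they came from, so paternal and maternal below name only the known group of a gene.

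Cells with at least 2000 genes and at most 20% mitochondrial UMIs were kept, and those with under 40 UMIs of Vim plus S100a6 were taken as germ cells. This gave 4157 germ cells with 67689739 UMIs in control and 4537 with 67068085 UMIs in the FGF9-treated library, beside 31 and 63 feeder cells with at least 40 such UMIs. Of the germ cells 10 barcodes were shared between the libraries. All 9 germ markers were found at 10 CPM or more in both germ sums (16.5 to 1823 CPM), Ddx4 and Dazl among them, while Thy1, the antigen of the sort, stood at 0.635 CPM in the control library and 0.924 CPM in FGF9-treated germ cells. CPM is a gene's UMIs summed over germ cells, scaled to 1000000 UMIs of that sum. It was not divided by length, because 1 molecule was taken to give 1 tag whatever its length. That assumption was not checked for long RNAs such as Kcnq1ot1. There were no replicates, so no test between treatments exists, and every interval is a 95% interval of counting error only.

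Promoter stretches of 4 genes are shown from the RefSeq table of start sites (build GRCm38.p6), which held 48 windows of 300 bases for 30 of the 36 genes. H19, Impact, Kcnk9, Peg10, Rtl1 and Sgce were not among them. The first lies between the divergent starts of Peg3 and Usp29, a pair of paternally expressed genes that differ in level below, at chr7:6730420-6730582 on the plus strand. The second lies before the most CpG-rich start of Igf2, at chr7:142658805-142659054 on the minus strand. Capitals mark CpG pairs, the sites of methylation, in both. The third lies before a start of Mest, at chr6:30737800-30738049 on the plus strand, and its capitals mark TGCCGC on either strand, the core of the motif bound by the imprint-maintaining factor ZFP57.
Peg3-Usp29: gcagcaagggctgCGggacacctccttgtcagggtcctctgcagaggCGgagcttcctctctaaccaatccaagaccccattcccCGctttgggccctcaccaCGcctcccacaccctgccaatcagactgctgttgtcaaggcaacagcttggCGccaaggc
Igf2: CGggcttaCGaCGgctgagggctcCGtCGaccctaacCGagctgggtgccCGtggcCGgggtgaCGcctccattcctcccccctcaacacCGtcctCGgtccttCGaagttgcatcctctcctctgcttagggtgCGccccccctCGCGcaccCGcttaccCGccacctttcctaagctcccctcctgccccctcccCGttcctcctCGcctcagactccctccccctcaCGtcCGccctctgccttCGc
Mest: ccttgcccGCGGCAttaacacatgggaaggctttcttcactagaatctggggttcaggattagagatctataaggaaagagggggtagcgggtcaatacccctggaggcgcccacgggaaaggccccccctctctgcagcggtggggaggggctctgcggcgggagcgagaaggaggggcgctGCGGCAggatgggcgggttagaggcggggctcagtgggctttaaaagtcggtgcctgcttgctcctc
The 163 bases between Peg3 and Usp29 held 5 CpG pairs, the 250 bases of Igf2 held 22 and those of Mest held 14. TGCCGC was found on either strand in 11 of the 48 windows of imprinted genes (22.9%), from 10 of the 30 genes, and in 11.6% of all 32851 windows. The motif holds a CpG pair itself, and the windows compared were not matched for CpG content, so these shares do not measure ZFP57 binding. Over the richest window of each gene, the median was 17 CpG pairs for the 13 expressed genes with a window, 17 also for the 7 low genes, 11 for the 4 genes past 10 CPM in 1 library and 10 for the 6 silent ones, beside 8 over all 27025 genes. The richest window depends on how many windows a gene has, 48 for the 30 imprinted genes against 32851 for all 27025. The median of 8 was also not split by level. So these medians do not set the imprinted genes apart.

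Of the 36 imprinted genes, 15 were expressed in germ cells, with at least 10 CPM in both libraries, against 34% of the 24316 genes with a germ cell UMI. Another 4 passed 10 CPM in 1 library, 9 were low, and 8 were silent, with under 1 CPM in both, against 43.6% of the same 24316 genes. Together they made 1223 CPM in the control library and 1356 CPM in FGF9-treated cells, and the 3 most abundant, Kcnq1ot1, Gnas and Ube3a, held 52.4% and 54.9% of this.

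**Figure D1:**
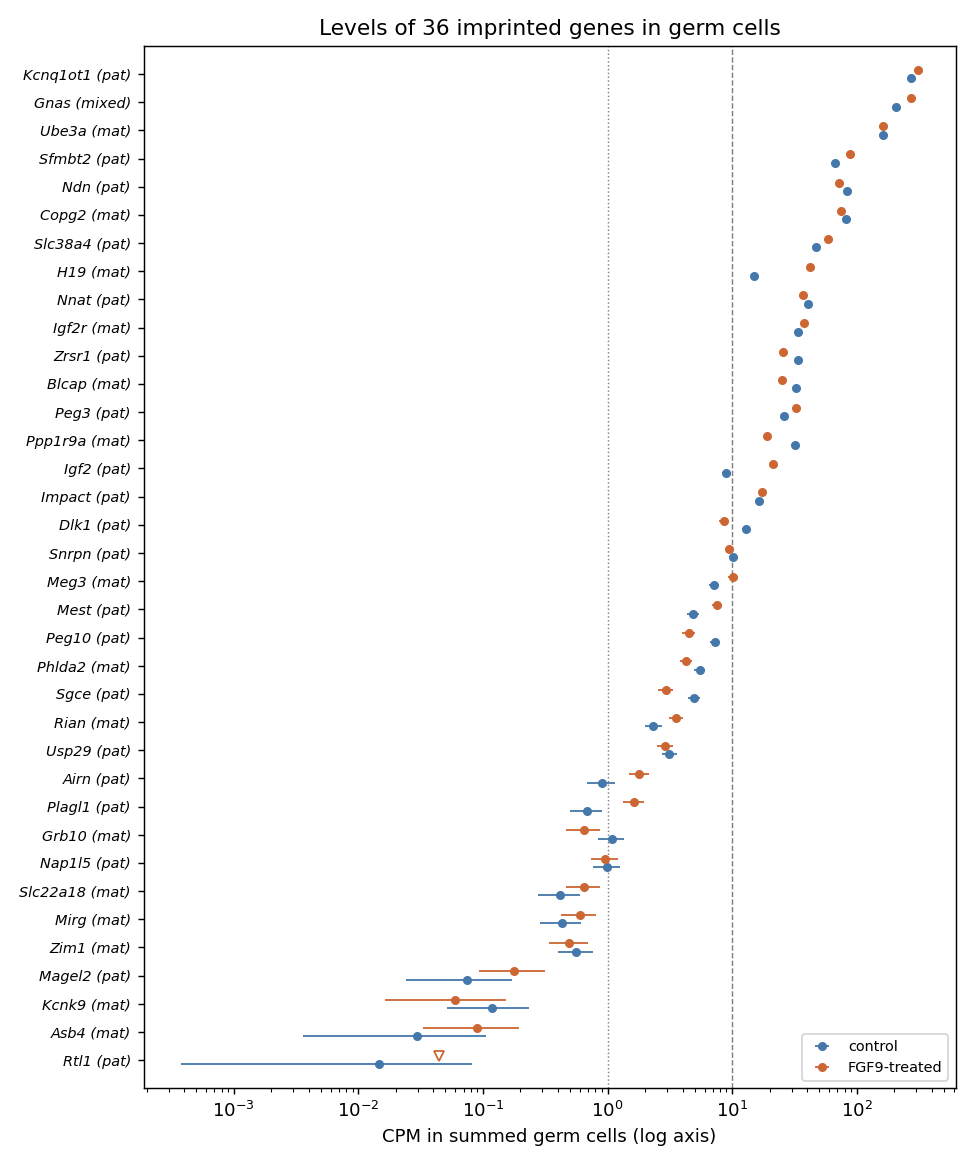
Levels of the 36 imprinted genes in summed germ cells, in CPM on a log axis, for the control and FGF9-treated libraries, with 95% Poisson intervals. Brackets give the known active copy, the dashed line marks 10 CPM and the dotted line 1 CPM. The open triangle is the limit that the count of 0 allows for Rtl1 in FGF9-treated cells, 0.0447 CPM; H19 and Igf2 have the widest gaps between libraries among genes over 10 CPM.

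Kcnq1ot1, the long noncoding RNA that silences its cluster on the paternal chromosome, was the most abundant in both libraries, at 273 CPM in the control library and 309 CPM in FGF9-treated cells. Gnas, which encodes the stimulatory G protein alpha subunit, followed at 207 and 272 CPM. Ube3a, a ubiquitin ligase gene imprinted in neurons, stood at 162 and 163 CPM. These 3 levels did not overlap in their intervals within either library.

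Ndn, which encodes the growth suppressor necdin, stood at 83.3 CPM in the control library and 72.2 CPM in FGF9-treated cells. Copg2, a coatomer subunit gene that lies tail to tail with Mest, stood at 81.3 and 74.3 CPM, and its interval overlapped that of Ndn in both libraries. Sfmbt2, a Polycomb-group gene imprinted chiefly in the placenta, stood at 67.4 and 88.3 CPM. The remaining strongly expressed gene, the amino acid transporter gene Slc38a4, stood at 46.9 and 58.6 CPM.

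Nnat, a small membrane proteolipid gene, stood at 40.3 and 37.0 CPM, and Blcap, the gene it lies in on the other strand, at 32.6 and 24.9 CPM. Igf2r stood at 33.7 CPM in the control library and 37.7 CPM in FGF9-treated cells. Zrsr1, a splicing factor retrocopy that lies within Commd1, stood at 34.0 and 25.8 CPM, with the reservation that its reads may be split with those of its paralog Zrsr2. Zrsr1, Igf2r, Blcap and Ppp1r9a followed each other with overlapping intervals in control.

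Peg3, a zinc finger gene, stood at 26.3 and 32.5 CPM, whereas Usp29, which starts from the same stretch shown above, stood at 3.13 and 2.89 CPM. Impact, a regulator of translation under stress, stood at 16.3 and 17.4 CPM. H19, Ppp1r9a, Igf2 and Dlk1 are described with the difference between libraries. Snrpn, which encodes a splicing protein, stood at 10.2 and 9.41 CPM, just on either side of the limit. Its count is uncertain, since Snurf and Gm38393 overlap it on the same strand.

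Among the low genes, the retrotransposon-derived Peg10 stood at 7.24 and 4.47 CPM and its divergent neighbour Sgce, the epsilon-sarcoglycan gene, at 4.92 and 2.94 CPM. Phlda2, a placental growth gene, stood at 5.50 and 4.28 CPM. Mest, an alpha/beta hydrolase family gene, stood at 4.89 and 7.57 CPM. Airn, the noncoding RNA that silences Igf2r on the paternal chromosome and lies antisense to it, stood at 0.901 and 1.79 CPM. The zinc finger gene Plagl1 stood at 0.680 and 1.63 CPM and Grb10 at 1.08 and 0.641 CPM.

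The silent genes were Zim1, Asb4, Mirg, Rtl1, Magel2, Slc22a18, Nap1l5 and Kcnk9. Nap1l5, a nucleosome assembly family gene, lay just under the limit at 0.990 and 0.954 CPM (67 and 64 UMIs). Slc22a18, Mirg and Zim1 lay between 0.414 and 0.641 CPM. Asb4, Magel2 and the potassium channel gene Kcnk9 had between 2 and 12 UMIs in a library. Rtl1, a retrotransposon-derived gene needed in the placenta, had 1 UMI in control and 0 in FGF9-treated cells, which allows a level of up to 0.0447 CPM.

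The clusters were not uniform. In the Dlk1-Meg3 cluster the maternally expressed noncoding RNAs stood in the order Meg3 (7.19 and 10.1 CPM), Rian (2.33 and 3.52 CPM), a host of small nucleolar RNAs, and Mirg (0.428 and 0.596 CPM), a host of microRNAs. Of the paternally expressed genes of that cluster Dlk1 had 874 and 575 UMIs while Rtl1, which lies antisense to the maternal transcripts, had 1 and 0. In the Snrpn cluster Ndn exceeded 70 CPM in both libraries, whereas its neighbour Magel2 had 5 and 12 UMIs.

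By group, 8 of the 20 paternally expressed and 6 of the 15 maternally expressed genes were expressed in germ cells, 40% of each, beside 34% of all genes with a germ cell UMI. Silent genes numbered 3 and 5. Set down here as imprinted only in some tissues or isoforms were Igf2r, Zim1, Asb4, Ppp1r9a, Ube3a, Grb10, Copg2, Blcap, Slc22a18 and Kcnk9 of the maternal group. Of the paternal group they were Slc38a4 and Sfmbt2. Without these the counts were 6 of 18 paternal and 1 of 5 maternal, the 1 being H19. For Igf2r, which Airn silences on the paternal chromosome, this placing is open to dispute. It was expressed at 33.7 and 37.7 CPM, so the maternal count rests on that choice. The summed level was 642 CPM in the control library and 703 CPM in FGF9-treated cells for the paternal group, and 374 and 381 CPM for the maternal group.

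Between libraries, 19 of the 36 genes reached 10 CPM in either library and were compared. Of these 2 were higher in FGF9-treated cells (H19 and Igf2) and 2 were lower (Ppp1r9a and Dlk1), where higher or lower means a log2 ratio of FGF9-treated over control beyond 0.5 in size with an interval that leaves out 0. Over all 8877 genes compared in the same way, 5.78% were higher and 5.95% lower, 11.7% in all. The 2 of 19 in each direction are too few to set the group apart from this background. The comparison was meant to show how germ cells respond to FGF9, but with 1 library per treatment it cannot tell treatment from library. If control cells had no growth factors, as the study's figure legend gives, the ratios also hold the effect of their withdrawal.

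H19, a maternally expressed noncoding RNA and host of a microRNA, was counted at 1018 UMIs in control and 2831 UMIs in FGF9-treated germ cells. Its level was 15.0 CPM (14.1 to 16.0) in the control library and 42.2 CPM (40.7 to 43.8) in FGF9-treated cells, a log2 ratio of 1.49 (1.39 to 1.59). Of the 8877 genes, 55 had a higher ratio. In cells thinned to 5000 UMIs, H19 was seen in 263 of 4141 control cells (6.35%, 5.63 to 7.14) and 763 of 4515 FGF9-treated cells (16.9%, 15.8 to 18.0), and unthinned in 16.8% and 36.9%. In feeder cells thinned the same way, where 31 and 63 cells were counted, the shares were 9.68% and 6.35%.

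Igf2 was counted at 607 UMIs in control and 1433 UMIs in FGF9-treated cells. Its level was 8.97 CPM (8.27 to 9.71) in the control library and 21.4 CPM (20.3 to 22.5) in FGF9-treated cells, a log2 ratio of 1.25 (1.11 to 1.39), and 86 genes had a higher ratio. The thinned shares of germ cells were 4.47% (3.86 to 5.14) and 9.81% (8.96 to 10.7), and unthinned 12.1% and 23.7%. Both neighbours thus stood higher in the FGF9-treated library, although they are expressed from opposite parental copies in most tissues.

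Ppp1r9a, which encodes the actin-binding scaffold neurabin, was lower in FGF9-treated cells, at 19.1 CPM (1282 UMIs) against 32.2 CPM (2179 UMIs), a log2 ratio of -0.75 (-0.85 to -0.65). Dlk1, which encodes a transmembrane protein related to Notch ligands, stood at 8.57 CPM (575 UMIs) against 12.9 CPM (874 UMIs), a ratio of -0.59 (-0.75 to -0.44). Dlk1 was abundant in feeder cells, and feeder RNA at the median ratio of the feeder markers given below would come to 46.4% of its germ level in control and 144% in the FGF9-treated library. Lower ratios than theirs were found for 193 and 361 of the 8877 genes. Meg3 lay just outside the limit at 0.49 (0.32 to 0.66).

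**Figure D2:**
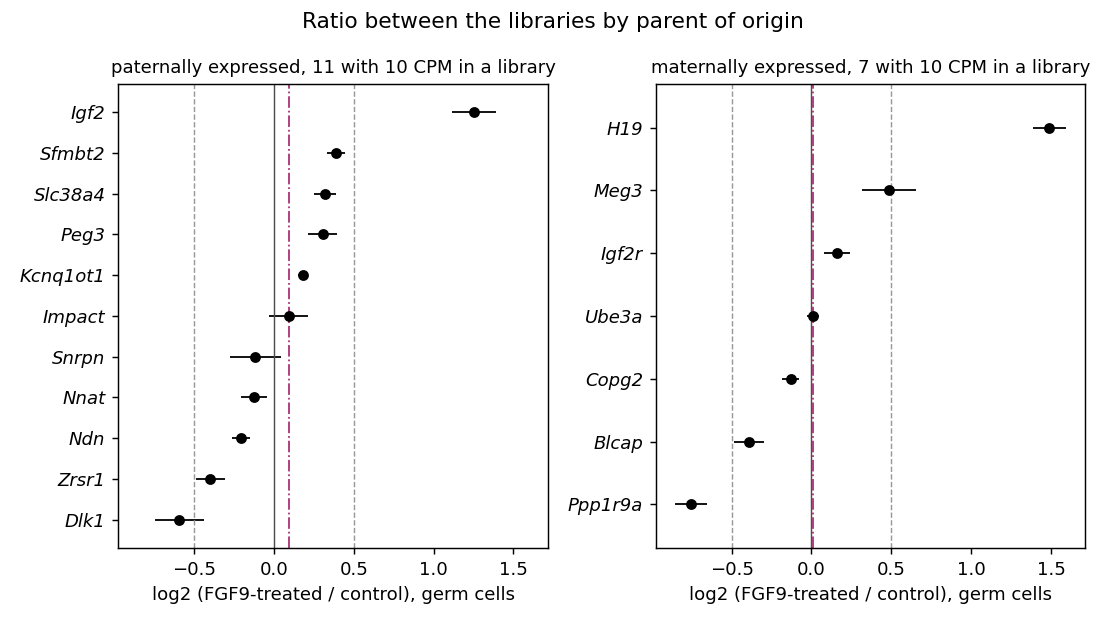
Log2 ratio of FGF9-treated over control CPM in germ cells for the 11 paternally (left) and 7 maternally (right) expressed genes that reached 10 CPM in either library, with exact binomial 95% intervals. Dashed lines mark 0.5 in each direction and the dash-dotted line the group's median, 0.09 and 0.01; each group has 1 gene beyond the limit on either side.

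The paternal group, with 11 genes compared, had a median log2 ratio of 0.09 (range -0.59 to 1.25), and the maternal group, with 7 compared, 0.01 (-0.75 to 1.49). The median of all 8877 genes was -0.03. Each group held 1 higher and 1 lower gene. Intervals lay above 0 for 5 paternal and 3 maternal genes, beside 32.8% of all genes compared, and below 0 for 4 and 3, beside 43.1%. Gnas had a ratio of 0.40 (0.36 to 0.43), Sfmbt2 0.39 (0.33 to 0.44) and Zrsr1 -0.40 (-0.49 to -0.31), all inside the limit. Without the genes set down as limited to some tissues or isoforms the medians were -0.12 over 9 paternal genes and 0.99 over 2 maternal ones, H19 and Meg3. Igf2r, left out by this, had a ratio of 0.16 (0.08 to 0.24).

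Below 10 CPM, where no call was made, Plagl1 had a ratio of 1.26 (0.75 to 1.79) and Airn 0.99 (0.53 to 1.46). Mest stood at 0.63 (0.43 to 0.84) and Rian at 0.59 (0.30 to 0.89). Lower in FGF9-treated cells were Peg10 at -0.69 (-0.91 to -0.48), Sgce at -0.74 (-1.01 to -0.49) and Grb10 at -0.75 (-1.33 to -0.19). Plagl1, Mest and Grb10 were also found in feeder cells, with values given below. The divergent pair Peg10 and Sgce had similar ratios, while Peg3 at 0.31 (0.21 to 0.40) and Usp29 at -0.11 (-0.40 to 0.17) did not overlap in their intervals.

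The shares of germ cells with a UMI of class markers differed between the libraries. Cells with a UMI of both Gfra1 and Ret, the GDNF receptor genes that mark stem cells, were 415 of 4157 (9.98%, 9.09 to 10.9) in control and 1687 of 4537 (37.2%, 35.8 to 38.6) in FGF9-treated germ cells, and 1.84% and 11.0% after thinning to 5000 UMIs. The summed level of Gfra1 was 16.5 CPM in the control library and 58.6 CPM in FGF9-treated cells (log2 ratio 1.83), that of Ret 34.9 and 104 CPM (1.58), and that of Sohlh1, a transcription factor gene of spermatogonial differentiation, 222 and 107 CPM (-1.05, -1.09 to -1.01); these were the 3 of 9 germ markers past the log2 limit. Cells with the progenitor factor Neurog3 and without that pair were 37.5% and 9.85%. Cells with the proliferation marker Mki67 were 20.0% and 37.8%. The levels of imprinted genes were therefore read within such classes. Membership depends on depth. Median UMIs were 15948 and 14428 in cells with Gfra1 and Ret and 15819 and 13367 in cells with Neurog3. Membership also depends on the markers' own levels, which differed between libraries, so a class need not hold the same kind of cells in both. The study reports higher stem cell markers with FGF9 in progenitor and differentiating cells as well.

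H19 was higher in cells with Gfra1 and Ret than in those with Neurog3, at 33.6 against 10.7 CPM in control (log2 ratio 1.65, 1.41 to 1.89) and at 52.3 against 26.2 CPM in FGF9-treated cells (0.99, 0.77 to 1.23). Igf2 had ratios of 1.12 (0.78 to 1.47) and 0.65 (0.35 to 0.96), and Peg3 of 0.89 (0.69 to 1.08) and 0.44 (0.20 to 0.68). Of the 19 genes compared, 5 had intervals above 0 in both libraries, beside 7.14% of all 8877 genes, the other two being Gnas and Kcnq1ot1 with ratios under 0.25. Nnat alone lay below 0 in both, beside 5.31% of all genes, at -0.63 (-0.85 to -0.42) and -0.21 (-0.40 to -0.01).

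Between libraries, the H19 ratio was 0.64 (0.45 to 0.83) within cells with Gfra1 and Ret, against 1.49 in all germ cells. Within cells with Neurog3 it was 1.29 (1.02 to 1.57), within cells with Kit 1.53 (1.20 to 1.85) and within cells with none of these 4 genes 1.52 (1.22 to 1.82). Igf2 had ratios of 0.70 (0.42 to 1.00), 1.18 (0.82 to 1.54), 1.64 (1.19 to 2.08) and 1.16 (0.81 to 1.51) in the same order. H19 and Igf2 stood higher in FGF9-treated cells in each of these classes, and also with Mki67 (1.56 and 1.25) and without it (1.41 and 1.13).

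Ppp1r9a stood lower in FGF9-treated cells in every class, with ratios from -1.18 in cells with Neurog3 to -0.37 in cells with none of the 4 genes. For Dlk1 the ratios ran from -0.75 without Mki67 to -0.35, and the interval reached 0 in cells with Gfra1 and Ret (-0.72 to 0.02) and in those with none of the 4 (-0.76 to 0.06). Mest was higher in cells with Mki67. Its level in cells with against without Mki67 was 8.94 against 3.55 CPM in control (1.33, 1.01 to 1.65) and 12.5 against 3.26 CPM in FGF9-treated cells (1.94, 1.64 to 2.25). Between libraries the Mest ratio was 0.49 (0.21 to 0.77) with Mki67 and -0.12 (-0.47 to 0.22) without, against 0.63 in all germ cells.

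**Figure D3:**
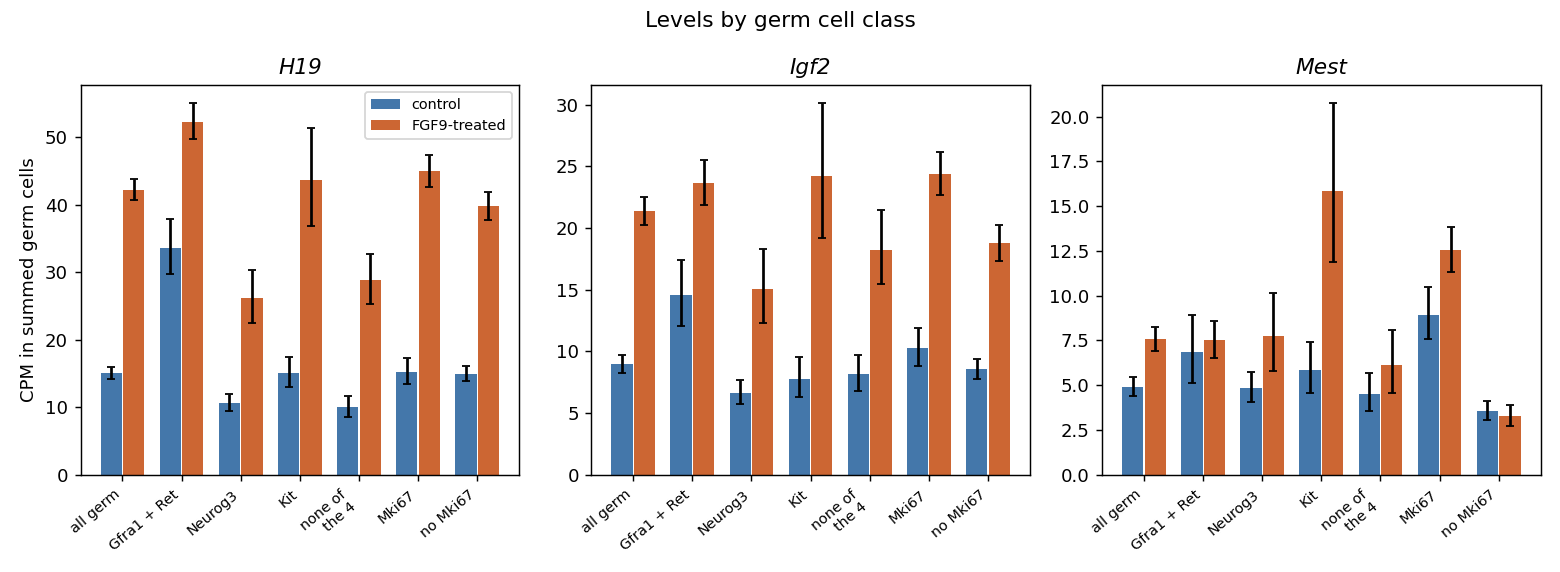
Levels of H19, Igf2 and Mest in CPM, summed over germ cells of each class, in control and FGF9-treated libraries, with 95% Poisson intervals. Classes are cells with a UMI of Gfra1 and Ret, of Neurog3 without that pair, of Kit, of none of the 4, and with or without Mki67; the control bar of H19 is highest in cells with Gfra1 and Ret, and the Mest bars without Mki67 nearly match between libraries.

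H19 and Igf2 lie 72622 bases apart on the minus strand of chromosome 7 (GRCm38; H19 142575529 to 142578143, Igf2 142650766 to 142666816). Igf2 is overlapped on the other strand by Igf2os, and no counted gene overlaps H19. In thinned cells both were seen together in 24 of 4141 control and 95 of 4515 FGF9-treated cells. Igf2 was seen in 9.13% of control cells with H19 and in 4.15% of those without, and in 12.5% and 9.28% of FGF9-treated cells. For Nnat and Blcap, which overlap on opposite strands, Blcap was seen in 14.5% of control cells with Nnat and 14.8% of those without, and in 12.5% and 12.0% of FGF9-treated cells. In counts this sparse such shares describe the cells and are no measure of co-regulation.

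Feeder cells express several imprinted genes. In feeder cells Gnas stood at 1400 CPM in the control library and 1629 CPM in the FGF9-treated library, Dlk1 at 1318 and 1666 CPM, Mest at 345 and 287 CPM, Peg3 at 282 and 170 CPM, and Igf2r at 276 and 321 CPM. Of the 36 genes, 10 had intervals of the feeder level above the germ level in both libraries, 9 had the germ level above, and 10 had no UMI in a feeder cell, beside 11.9%, 16.4% and 36.6% of the 24316 genes with a germ cell UMI. Among those higher in germ cells, the level of Ndn was 524% of its feeder level in control and 1346% in the FGF9-treated library, and that of Slc38a4 812% and 993%.

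**Figure D4:**
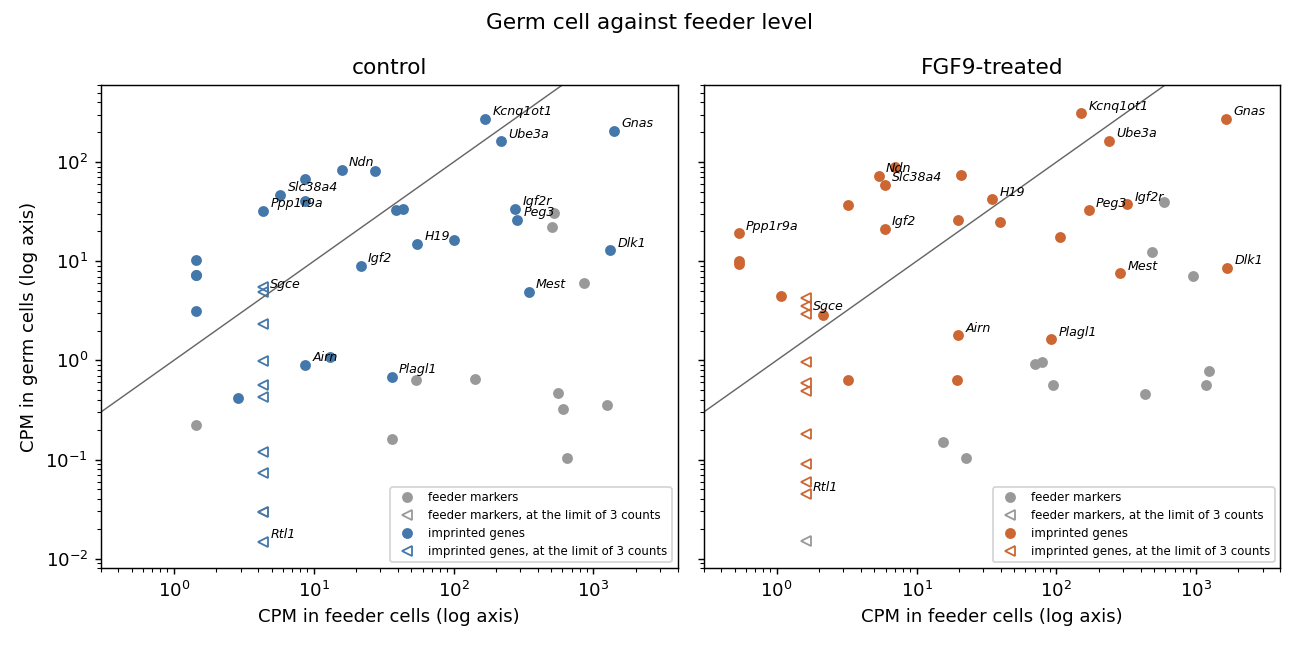
Level of each imprinted gene (coloured) and feeder marker (grey) in germ cells against that in feeder cells, in CPM on log axes, for each library; open triangles are drawn at the limit of 3 counts and the line marks equal levels. Dlk1, Mest and Plagl1 lie near the feeder markers, and Ndn, Slc38a4 and Ppp1r9a above the line; H19 lies under it in control and near it in the FGF9-treated library.

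The 12 feeder markers summed to 61.6 CPM in the control library and 63.6 CPM in FGF9-treated germ cells, against 5168 and 5152 CPM in feeder cells, where Sox7 was at 0. Over the 11 others the germ level was 0.454% (median) of the feeder level in control and 0.743% in the FGF9-treated library, and at most 15.3% (Tagln, 1 feeder UMI) and 6.71% (Fn1). Of the feeder markers 2 reached 10 CPM in germ cells, Fn1 and Col1a1, and Col1a1 was past the log2 limit, at 12.3 CPM in the FGF9-treated library against 22.3 CPM in control (-0.86, -0.98 to -0.74). Germ levels of 4 genes lay within the range of the markers in both libraries, at 0.980% and 0.515% of the feeder level for Dlk1, 1.42% and 2.64% for Mest, 1.88% and 1.77% for Plagl1, and 8.29% and 3.32% for Grb10. Without Tagln the highest marker in control was Fn1 at 5.78%, and Grb10 in control would lie above that range. At the median marker ratio, feeder RNA would come to 46.4% of the germ level of Dlk1 in control and 144% in the FGF9-treated library, to 32.1% and 28.2% for Mest, to 24.2% and 42.0% for Plagl1, and to 5.48% and 22.4% for Grb10. Among the 15 expressed genes it would come to at most 6.33%, for Igf2r.

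H19 was counted in feeder cells at 38 UMIs in control and 65 in the FGF9-treated library, 54.9 CPM (38.8 to 75.4) and 34.9 CPM (26.9 to 44.5), in 10 cells each, of which the top 3 cells held 25 and 47 UMIs. Its germ level was 27.4% (19.8 to 38.9) of the feeder level in control and 121% (94.7 to 157) in the FGF9-treated library, where the latter was 479% without barcodes of over 2.5 times the median UMIs. Igf2 had 15 and 11 feeder UMIs, of which the top 3 cells held 15 and 5, and 1 control cell alone held 9. Its germ level was 41.4% (24.9 to 74.4) and 362% (202 to 727) of the feeder level, with intervals that do not cover this spread between cells. The control percentages of H19 and Igf2 exceeded the highest markers, Tagln (15.3%, on 1 feeder UMI) and Fn1 (5.78%). Germ cells without any UMI of Col1a2, Col3a1, Bgn and Postn numbered 4072 in control and 4358 in the FGF9-treated library. In these the ratios between libraries were 1.48 for H19 and 1.25 for Igf2. This filter left out few germ cells and did not use Fn1 and Col1a1, so the ratios could hardly change. Whether free feeder RNA adds to them was not tested. Germ markers were also counted in feeder cells, at a median of 19.5% of their germ level in control and 6.05% in the FGF9-treated library, and the part of free RNA or of doublets in this was not tested.

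Other somatic markers of the testis were scarce in germ cells. The 5 Sertoli markers summed to 7.82 and 10.7 CPM, of which Wt1 made 5.50 and 5.95 CPM and Sox9 made 1.55 and 3.89 CPM (log2 ratio 1.33, 0.99 to 1.67), the latter beside 127 and 131 CPM in feeder cells. The 5 Leydig markers summed to 4.37 and 5.08 CPM, of which Star made 4.05 and 5.05 CPM. Cyp11a1 had 22 and 2 UMIs, and Cyp17a1, Insl3 and Hsd3b1 were at 0. The 4 macrophage markers summed to 1.03 and 2.31 CPM. Of these Cd68 made 0.827 and 1.57 CPM and Ptprc 0.163 and 0.731 CPM, with Adgre1 at 0.

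A further list held 36 imprinted genes, of which 34 were found by name and Zfp264 and Nespas were not. Of the 34, 14 were expressed and 14 silent, beside 34% and 43.6% of the 24316 genes with a germ cell UMI. Tfpi2, counted as silent, had no germ cell UMI in either library and so lies outside that base. Of the 14 genes compared 1 was higher and 2 were lower, beside 5.78% and 5.95% of all genes compared. The 1 higher in FGF9-treated cells was Cdkn1c, a cyclin-dependent kinase inhibitor gene of the Kcnq1ot1 cluster, at 132 against 80.9 CPM (log2 ratio 0.71, 0.66 to 0.75). Lower were Dhcr7, a cholesterol synthesis gene, at 50.2 against 75.2 CPM (-0.58), and the adaptor gene Gab1 at 13.1 against 19.9 CPM (-0.60). The median ratio of the list was 0.03.

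Factors that keep or set imprints were read beside them, and 7 of 12 could be compared. Of these 7, 1 was higher and 1 lower, beside 5.78% and 5.95% of all 8877 genes compared. Uhrf1, which brings the maintenance methyltransferase to replicating DNA, stood at 124 CPM in FGF9-treated against 60.6 CPM in control cells (log2 ratio 1.03, 0.98 to 1.08), and the methyltransferase Dnmt1 itself at 285 against 206 CPM (0.47, 0.44 to 0.50), inside the limit. The de novo methyltransferase Dnmt3b was lower at 29.8 against 47.6 CPM (-0.68, -0.76 to -0.59). Its cofactor Dnmt3l, too low to be called, had 49 against 212 UMIs. The zinc finger factor Zfp57 stood at 4.28 CPM in the control library and 4.79 CPM in FGF9-treated cells and Ctcf, the insulator factor that binds between H19 and Igf2, at 92.2 and 98.7 CPM, while Dnmt3c had no UMI in either library. Zfp445 (log2 ratio 0.07), Trim28 (-0.16) and Dnmt3a (-0.43) were compared and lay inside the limit. Ctcfl (0.67) and Dppa3 (-0.76) were too low to be called. These factors were not read within the Mki67 classes, so the part of cell class in their ratios was not tested.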

How the data were processed

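Raw UMI counts per gene and barcode were deposited by the authors, who made them with Cell Ranger (version 3.1.0 in the matrix header) against mm10 with GENCODE annotation, before their own cell filter with Seurat 3.1. Each library is 1 matrix of whole-number counts. The KIT antibody tag was not used. Cells were kept, classed and summed as given above. 1 library stood for each treatment, so no test between treatments was made, and the genes and lists were chosen with earlier results of these data known. Named were all 36 genes, and of the other lists those past the log2 limit. Dnmt1, Dnmt3a, Dnmt3l, Dnmt3c, Zfp57, Zfp445, Trim28, Ctcf, Ctcfl, Dppa3, Tfpi2, Wt1, Sox9, Thy1, Star, Cyp11a1, Cd68 and Ptprc were named after their values were seen. Ratios have exact conditional binomial intervals, levels exact Poisson intervals and shares exact binomial (Clopper-Pearson) intervals at 95%, for counting error only; a count of 0 was limited at 3 counts. The ratio and its interval were checked on simulated counts. Shares of cells were computed after thinning each cell to 5000 UMIs, for which 16 germ cells in control and 22 with FGF9 were too shallow. Doublets were not called; 1 alternative leaves out barcodes of high UMIs. Positions and overlaps come from GENCODE vM21 of GRCm38, where 32158 of 32285 gene identifiers and all 36 genes were found; 17 of the 36 overlap another counted gene, 1 of them on the same strand. Cell Ranger counts reads on the strand of the gene by default, and the setting used is not given in the sources used here. Gene positions are those of the annotation and not of the reads. Computations used Python 3.11.15, numpy 2.4.6, scipy 1.17.1 and pandas 2.3.3.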

Additional observations from a re-analysis of the deposited data

Results flagged for a closer look

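For 4 genes the libraries differed in opposite directions in germ and feeder cells, with intervals on either side of 0; the difference between the cell types was not tested. H19 had a log2 ratio of 1.49 in germ cells and -0.65 (-1.25 to -0.04) in feeder cells, and Igf2 1.25 and -1.88 (-3.14 to -0.66), the latter on 15 and 11 feeder UMIs. Peg3 had 0.31 and -0.73 (-0.99 to -0.46), and Dlk1 -0.59 and 0.34 (0.23 to 0.45). Feeder sums rest on 31 and 63 cells, of which single cells hold many UMIs (22 of the 65 UMIs of H19 and 473 of the 3104 of Dlk1 in the FGF9-treated library). For Igf2 in control, 1 cell held 9 of the 15 feeder UMIs and the top 3 cells held all 15.

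The barcodes outside the cell filter, which the comparisons left out, also held more of both neighbours in the FGF9-treated library. These barcodes come from the same libraries and are no independent support. Gfra1 and Ret stood higher there as well, with log2 ratios of 1.92 and 1.97. H19 had 20 UMIs in control and 60 in the FGF9-treated library, a log2 ratio of 1.31 (0.56 to 2.12), and Igf2 had 23 and 69 UMIs, a ratio of 1.31 (0.62 to 2.06).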

How the results depend on the processing

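Results were computed again under other scaling, feeder limits, cell filters, thinning, expression limits and group membership. Of 176 values 161 moved by less than their counting interval or, for counts, by at most 1.5 times. Many of these could hardly move, so the 161 is no measure of robustness. Feeder limits of 20 and 10 UMIs kept 4156 and 4155 from 4157 germ cells in control. In the FGF9-treated library they kept 4536 and 4532 from 4537. Median-of-ratios scaling left the germ levels of H19 and Igf2, as percentages of feeder levels, unchanged. The log2 ratio of none of the 12 genes followed here changed sign. Both group medians, which lie near 0, did so under some settings. With limits of 5 and 0.5 CPM, 4 genes were silent, with a log2 limit of 1, 2 genes passed it between libraries, and with at least 5 CPM in a library 6 did. Without the genes set down as limited to some tissues or isoforms, Igf2r among them, 1 maternal gene was expressed and the median ratios were -0.12 (paternal) and 0.99 (maternal). Thinned to 5000 UMIs, the maternal median was -0.089, the ratio of Meg3 0.18 and the germ level of H19 211% of the feeder level in the FGF9-treated library, which became 479% without barcodes of over 2.5 times the median UMIs. Under median-of-ratios scaling Meg3 passed the limit at 0.52, making 5 genes in all. Among alternatives chosen after seeing the data, the ratio of H19 was 0.64 in cells with Gfra1 and Ret and 1.29 in cells with Neurog3, and that of Igf2 0.70 in the former. No paired analysis was possible because each treatment had 1 library, and for the same reason no replicate could be left out.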
